A study of Mus musculus with 15 samples.

Results

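The NuRD complex and the other corepressor and remodelling complexes of the nucleus were followed in mature mouse thymocytes as 35 listed genes: 14 NuRD subunits (Chd3 to Cdk2ap1) and 21 subunits or partners of SIN3, CoREST, NCoR, Polycomb and BAF complexes, with the class IIa deacetylase gene Hdac7. The members were taken by symbol from the deposited table of 53762 genes, where 34 of the 35 symbols matched a row. The symbol Sds3 matched none, and Suds3, which the RefSeq gene table gives with the synonym mSds3, is described with the other genes of these complexes. All 34 members passed the filter on low counts, 14 of NuRD and 20 of the other complexes. RNA was sequenced from 15 libraries of C57BL/6 cells sorted from mixed bone marrow chimeras, 3 in each of 5 groups, with each gate on mature thymocytes (CD44lo, TCRb hi, CD24lo and CD69lo). WT CD4 single-positive (SP) cells were CD45.1+CD45.2+ competitor cells from B2m-/- hosts, which lack a chain that MHC class I needs. WT CD8 SP cells were CD45.1+CD45.2+ cells labelled as from I-Ab-/-, a deletion of a chain of MHC class II, and the design text does not describe those mice. The mutant cells were CD45.2+ and developed in irradiated B2m-/- hosts from donors with the genotype Thpok fl/fl Runx3 fl/dYFP Cd4-Cre+. Cd4-Cre deletes floxed sequence in developing T cells, so all 3 mutant groups share that background, and the WT groups do not. From chimeras of donors without Thpok-RKF, CD8 SP and CD4+CD8+ cells were sorted, and from those of donors with Thpok-RKF, CD4+CD8+ cells. What Thpok-RKF stands for is not in the labels. Nor do they tell whether each replicate was a separate animal, and p-values then cover the spread between these libraries, which may be technical. WT CD8 SP cells differ from all other groups by this source.

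NuRD couples nucleosome remodelling to histone deacetylation: the ATPases Chd3 and Chd4 move nucleosomes, and the deacetylases Hdac1 and Hdac2 remove acetyl groups from histones. Mta proteins form its scaffold, Rbbp4 and Rbbp7 bind histones, Mbd2 and Mbd3 occupy the complex in alternative forms, and Gatad2a or Gatad2b bridges the deacetylase part to the remodeller. In T cells Chd4 and Mta2 have been tied to thymocyte development and to Cd4 expression, and Thpok (gene Zbtb7b), the transcription factor of the helper lineage, is known to act with corepressors. The comparisons set the RNA of these complexes in WT helper-type and cytotoxic-type cells beside that in mutant cells without and with Thpok-RKF.

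The libraries held between 37311823 and 48607260 gene counts. Levels are CPM, the count of a gene scaled to a common library size with TMM factors, given as mean ± SD (n = 3) or for replicates 1, 2 and 3 in that order. Differences are log2 fold changes from 1 edgeR quasi-likelihood fit of all libraries, the main fit. P-values are adjusted over the 16550 genes tested, and a member counts as called below 0.05. Zbtb7b, the gene that the labels' genotypes target, stood at 56.8 ± 26.6 CPM in WT CD4 SP cells, 0.236 ± 0.141 CPM in WT CD8 SP cells, 2.18 ± 0.300 and 2.46 ± 0.694 CPM in Thpok-RKF- CD8 SP and CD4+CD8+ cells and 801 ± 28.9 CPM in Thpok-RKF+ cells. Cd4 RNA stood at 282 ± 100.5 CPM in Thpok-RKF- CD4+CD8+ cells and 1101 ± 58.4 CPM in Thpok-RKF+ cells, and Cd8a at 884 ± 118 and 1105 ± 161 CPM. Marker lists of other cell types were not all low. The 8 B cell markers summed to 362 to 1190 CPM a library, with means of 671 CPM in WT CD4 SP and 1060 CPM in WT CD8 SP cells, mostly from Ighm, while Ms4a1 was at 0 in every library. Between the WT groups 2 of 4 tested B cell markers were called, Cd79b (-5.05) and Ighd (-7.68). The 10 stroma markers summed to 161 to 313 CPM, with 290 and 174 CPM in these groups, mostly from Pecam1, with Foxn1 at 0 in every library and 3 of 5 tested called. The 10 myeloid markers summed to 2.05 to 45.3 CPM, highest in Thpok-RKF+ replicate 1, with 1 of 6 tested called between the WT groups. The part of such cells in the members' differences was not tested. In bulk RNA, fewer cells of a type and less RNA per cell cannot be told apart. Thpok-RKF+ replicate 1 stood apart: 11.2% of its reads were assigned to no feature in the counting. The share was 5.28% and 5.65% in the other 2 libraries of that group and 5.09% to 9.93% in the remaining 12. Whether such reads lay in introns or between genes is not known. Replicate 1 had the highest such share in each of the 5 groups. In Thpok-RKF+ replicate 1, 10829 of 16550 tested genes (65.4%) lay closer to the Thpok-RKF- CD4+CD8+ mean than to that of the other 2 libraries. The same share was not taken for replicates 2 and 3. It sets a mean of 3 libraries against a mean of 2, so it does not show whether replicate 1 was unlike them. Counts of members called in the comparisons that use replicate 1 are given with and without that library.

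Between the WT lineages, whose source mice also differ, most of the members that changed were lower in helper-type cells. Lineage and source cannot be told apart in any comparison of the WT groups. Of the 34 members, 2 were higher and 9 lower in WT CD4 SP than in WT CD8 SP cells, with 18.0% of all tested genes changed in either direction, 7.72% higher and 10.3% lower. Chd3 (log2 fold change 1.03) and Ezh1 (0.38) were the members higher in WT CD4 SP cells, and Hdac7 (-1.88), Gatad2a (-0.90), Tbl1xr1 (-0.87), Ezh2 (-0.74), Mta3 (-0.72), Smarcc1 (-0.56), Mbd3 (-0.50), Rcor1 (-0.50) and Smarca4 (-0.49) were lower. With relative log expression size factors, which move the median of all genes by 0.02, the split was 4 higher and 9 lower. The median log2 fold change was -0.44 over the members and -0.03 over all genes, and the libraries were fully separate between the groups for 23 of 34 members, against 36.3% of all genes. In NuRD 4 of 14 members were called (1 higher, 3 lower, median -0.48), and in the other complexes 7 of 20 (1 higher, 6 lower, median -0.30). The difference between the sets was not tested.

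In mutant CD8 SP cells without Thpok-RKF, 2 members were higher and 5 lower than in WT CD8 SP cells (18.4% of all genes changed, 7.77% higher and 10.6% lower). Chd3 (1.21) and Ezh1 (0.65) rose, and Sap30 (-0.98), Ezh2 (-0.68), Gatad2a (-0.65), Smarcb1 (-0.57) and Mta3 (-0.39) fell. The split was 3 higher and 4 lower with relative log expression size factors. The libraries were fully separate for 13 members, against 39.6% of all genes. Of the members, 3 of 14 NuRD and 4 of 20 other members were called, and the medians were -0.06 for NuRD, -0.07 for the others against 1.67e-05 for all genes. Genotype and the source mice both differ here and cannot be told apart.

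Against WT CD4 SP cells, which developed in the same kind of host, most members called in the mutant groups were higher. In Thpok-RKF- CD8 SP cells 5 members were higher and 1 lower (17.7% of all genes changed, 8.91% higher and 8.75% lower). In Thpok-RKF- CD4+CD8+ cells 10 were higher and 2 lower (17.6%, 9.15% and 8.42%). Thpok-RKF+ CD4+CD8+ cells had 3 members higher and 0 lower (7.26%, 4.36% and 2.91%): Hdac7 (1.45), Gatad2a (0.37) and Mbd3 (0.34). Without Thpok-RKF+ replicate 1 all 3 were called, Hdac7 at 0.91 (adjusted p = 0.00809), Gatad2a at 0.42 (0.00937) and Mbd3 at 0.38 (0.0419), and Rbbp7 was called as well, at 0.61 (0.0229), with 5.62% of all genes. In these comparisons NuRD had 2, 5 and 2 of 14 members called, and the remaining complexes 4, 7 and 1 of 20. The median log2 fold changes were 0.19, 0.28 and 0.33 for NuRD, 0.24, 0.19 and 0.23 for the others, and -0.00411, 0.0133 and 0.00528 for all genes. Libraries were fully separate for 20, 20 and 9 of the 34 members, against 37.0%, 38.4% and 21.0% of all genes. All 3 comparisons share the WT CD4 SP libraries, and so does the comparison of the WT lineages.

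Neither comparison among the mutant groups called a member. Between the CD4+CD8+ groups with and without Thpok-RKF, edgeR called 0 of 34 (0.961% of all genes, 0.586% higher and 0.375% lower), with 4 at an unadjusted p below 0.05. DESeq2 called 1, Cdk2ap1, and limma-trend 0. Between the Thpok-RKF- groups, CD4+CD8+ and CD8 SP, edgeR called 0 (2.44%, 1.72% and 0.719%), with 2 at an unadjusted p below 0.05, Mbd2 and Ezh1. There DESeq2 called 1, Ezh1, and limma-trend 0. Libraries were fully separate for 5 members in the first of these comparisons, against 16.4% of all genes, and for 9 in the second, against 21.1%. A test of any difference over the 5 groups called 12 of 34 members (35.3%), against 27.9% of all genes, and 18 without Thpok-RKF+ replicate 1, against 35.4%. The 12 were Chd3, Mta1, Mta3, Mbd2, Mbd3 and Gatad2a of NuRD (6 of 14) and Sin3b, Sap18, Tbl1xr1, Hdac7, Ezh2 and Ezh1 of the others (6 of 20). Counting all 7 pairwise comparisons, 7 of 14 NuRD and 13 of 20 other members were called at least once, against 37.1% of all genes. The difference between CD4-expressing and CD8 SP cells was itself unequal in Thpok-RKF- and WT cells for 8 members, 6 higher and 2 lower, against 14.3% of all genes (8.47% higher and 5.79% lower).

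**Figure D1:**
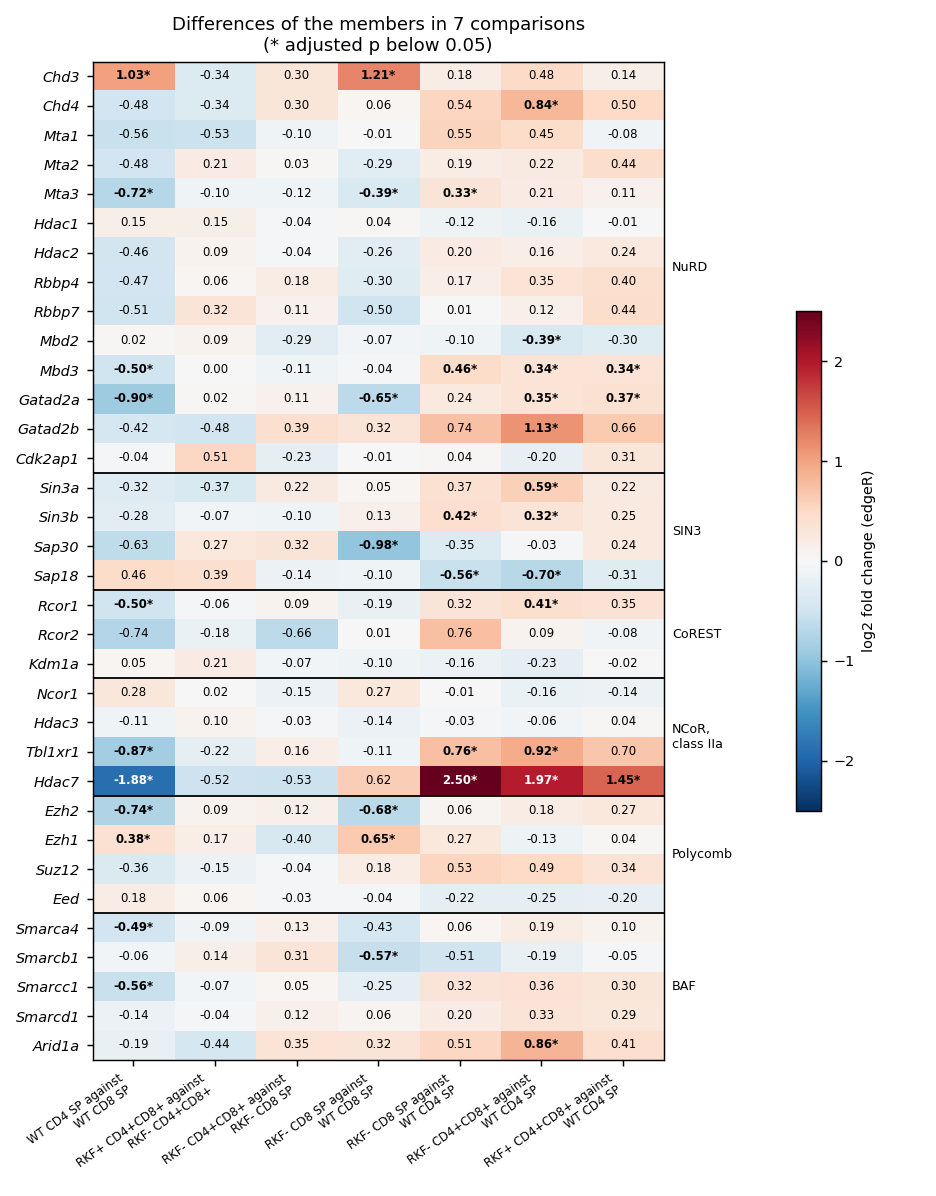
Log2 fold change of each of the 34 members (rows, grouped by complex) in the 7 comparisons (columns), coloured from blue (lower in the first group) to red (higher), with an asterisk where the adjusted p was below 0.05. Hdac7 carries the strongest colours, up to 2.50 in Thpok-RKF- CD8 SP against WT CD4 SP cells, and the 2 columns that compare mutant groups have no asterisk.

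Of the ATPases Chd3 and Chd4, Chd3 changed between the WT lineages. Chd3 stood at 227, 203 and 264 CPM in the WT CD4 SP libraries and 126, 112 and 101 CPM in WT CD8 SP. Chd3 values in mutant libraries were 276, 282 and 228 CPM in Thpok-RKF- CD8 SP, 356, 306 and 308 CPM in Thpok-RKF- CD4+CD8+ and 362, 206 and 198 CPM in Thpok-RKF+ CD4+CD8+ cells. No WT CD8 SP library reached any library of the other groups, and Thpok-RKF+ replicate 1 lay with the Thpok-RKF- CD4+CD8+ libraries. Chd3 was higher in WT CD4 SP than in WT CD8 SP cells (log2 fold change 1.03, SE 0.20, adjusted p = 0.00225). It was also higher in Thpok-RKF- CD8 SP than in WT CD8 SP cells (log2 fold change 1.21, SE 0.20, adjusted p = 0.000524). Both calls held with each library left out and under each other setting tried. Chd4 was at 101, 125 and 155 CPM in the WT CD4 SP libraries and 197, 166 and 170.4 CPM in WT CD8 SP. Chd4 values in mutant libraries were 174, 187 and 194 CPM in Thpok-RKF- CD8 SP, 226, 229.5 and 226 CPM in Thpok-RKF- CD4+CD8+ and 253, 137 and 149.7 CPM in Thpok-RKF+ CD4+CD8+ cells. Its values in Thpok-RKF- CD4+CD8+ cells lay close together and above every WT CD4 SP library. Chd4 was called there (log2 fold change 0.84, SE 0.20, adjusted p = 0.0116), with each library left out and under each other setting too. Between the WT lineages its log2 fold change was -0.48 (SE 0.20, adjusted p = 0.111), of the opposite sign to that of Chd3. DESeq2 (0.56, adjusted p = 0.0346) and limma-trend (0.0465) called Chd4 higher in Thpok-RKF- CD8 SP than in WT CD4 SP cells.

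Per length of merged exons in GENCODE M21, the log2 ratio of Chd3 to Chd4 was 0.77 ± 0.25 (SD, n = 3) in WT CD4 SP cells, while WT CD8 SP cells had -0.77 ± 0.10. The more abundant of the ATPase RNAs thus differed between the WT groups. The ratio was 0.39 ± 0.23 in Thpok-RKF- CD8 SP, 0.39 ± 0.13 in Thpok-RKF- CD4+CD8+ and 0.39 ± 0.09 in Thpok-RKF+ cells, and every library of the groups other than WT CD8 SP was above 0. Thpok-RKF+ replicate 1, at 0.41, lay between the other two libraries of its group, at 0.48 and 0.29, although both genes were at their highest in it within that group.

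**Figure D2:**
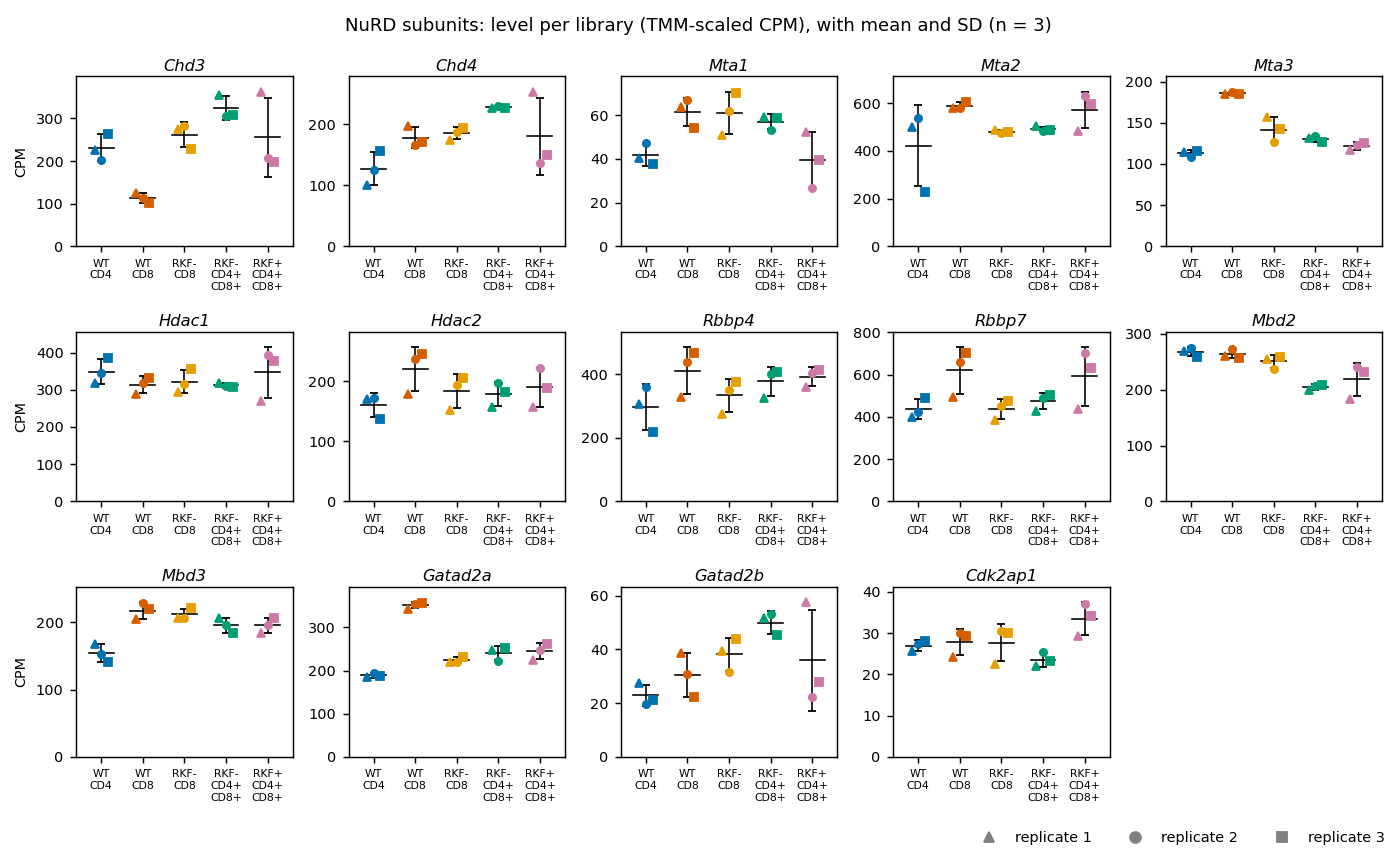
Level of the 14 NuRD members in each library (vertical axes, CPM from 0; symbols mark replicates 1 to 3) for the 5 groups, where RKF- and RKF+ stand for Thpok-RKF- and Thpok-RKF+, with bars for the mean and SD (n = 3). Chd3 is lowest in WT CD8 SP at 113 CPM, Gatad2a highest there at 351 CPM, and the triangle of Thpok-RKF+ replicate 1 departs from its group for Chd3, Chd4 and Gatad2b.

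Among the Mta scaffold genes, Mta3 differed between the WT groups. Mta3 stood at 114, 109 and 116 CPM in the WT CD4 SP libraries and 184, 188 and 185 CPM in WT CD8 SP. Mta3 values in mutant libraries were 157, 126 and 142 CPM in Thpok-RKF- CD8 SP, 132, 134 and 127 CPM in Thpok-RKF- CD4+CD8+ and 117, 124 and 125 CPM in Thpok-RKF+ CD4+CD8+ cells. The WT CD8 SP libraries were above all others. Mta3 was lower in WT CD4 SP than in WT CD8 SP cells (log2 fold change -0.72, SE 0.09, adjusted p = 0.000129), a call that held with each library left out and under each other setting. It was also lower in Thpok-RKF- CD8 SP than in WT CD8 SP cells (log2 fold change -0.39, SE 0.09, adjusted p = 0.00945), but not without Thpok-RKF- CD8 SP replicate 2 (0.0679) and with no filter on low counts (0.0963). Against WT CD4 SP cells it was higher in Thpok-RKF- CD8 SP cells (log2 fold change 0.33, SE 0.09, adjusted p = 0.0282). Mta3 lost this call without Thpok-RKF- CD8 SP replicates 1 and 3 (0.143 and 0.0897), without WT CD4 SP replicates 1, 2 and 3 (0.0724, 0.0968 and 0.0854), with no filter on low counts (0.118), with the compared groups alone in the fit (0.0831) and without all libraries numbered 1 (0.092). Mta1 stood lower, at 40.4, 47.4 and 37.4 CPM in the WT CD4 SP libraries and 63.5, 66.7 and 54.2 CPM in WT CD8 SP. Mta1 values in mutant libraries were 50.9, 61.8 and 70.2 CPM in Thpok-RKF- CD8 SP, 59.0, 53.1 and 58.9 CPM in Thpok-RKF- CD4+CD8+ and 52.1, 26.7 and 39.3 CPM in Thpok-RKF+ CD4+CD8+ cells. Mta1 was called over the 5 groups together and in none of the 7 comparisons (adjusted p = 0.0456). DESeq2 called it higher in Thpok-RKF- CD8 SP than in WT CD4 SP cells (0.57, adjusted p = 0.0391). Between the WT lineages Mta1 was called with no filter on low counts (-0.56, adjusted p = 0.0419) and with the compared groups alone in the fit (0.0455). Mta2, the scaffold gene with the highest level per length (163 CPM per kb over the groups, against 45.3 for Mta3 and 18.4 for Mta1), was not called in any comparison, except in Thpok-RKF- CD8 SP against WT CD8 SP cells with the compared groups alone in the fit (-0.26, adjusted p = 0.0419). WT CD4 SP replicate 3 held 228 CPM of Mta2, and the remaining 14 libraries 476 to 630.5 CPM.

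The subunits of the methyl-CpG-binding family, Mbd2 and Mbd3, changed in opposite directions between Thpok-RKF- CD4+CD8+ and WT CD4 SP cells. Mbd3 stood at 168, 153 and 141 CPM in the WT CD4 SP libraries and 204, 229 and 219 CPM in WT CD8 SP. Mbd3 values in mutant libraries were 206, 207 and 222 CPM in Thpok-RKF- CD8 SP, 207, 197 and 184 CPM in Thpok-RKF- CD4+CD8+ and 184, 196 and 207 CPM in Thpok-RKF+ CD4+CD8+ cells. All WT CD4 SP libraries were below all others. Mbd3 was lower in WT CD4 SP than in WT CD8 SP cells (log2 fold change -0.50, SE 0.10, adjusted p = 0.00263). It was higher in Thpok-RKF- CD8 SP than in WT CD4 SP cells (log2 fold change 0.46, SE 0.10, adjusted p = 0.00506), and both calls held with each library left out and under each other setting. It was also higher than in WT CD4 SP cells in Thpok-RKF- CD4+CD8+ (log2 fold change 0.34, SE 0.10, adjusted p = 0.0261) and Thpok-RKF+ CD4+CD8+ cells (log2 fold change 0.34, SE 0.10, adjusted p = 0.045). The first of these calls was lost without Thpok-RKF- CD4+CD8+ replicates 1, 2 and 3 (0.109, 0.103 and 0.0621), without WT CD4 SP replicates 2 and 3 (0.0753 and 0.143), with no filter on low counts (0.104) and with the compared groups alone in the fit (0.0621). The second was lost without Thpok-RKF+ CD4+CD8+ replicates 2 and 3 (0.0781 and 0.162), without WT CD4 SP replicates 2 and 3 (0.119 and 0.209), with no filter on low counts (0.198), with the compared groups alone in the fit (0.252) and with relative log expression size factors (0.0506). Mbd2 was at 270.2, 275 and 259 CPM in the WT CD4 SP libraries and 261, 272 and 258 CPM in WT CD8 SP. Mbd2 values in mutant libraries were 256, 237 and 259 CPM in Thpok-RKF- CD8 SP, 199, 207 and 209 CPM in Thpok-RKF- CD4+CD8+ and 184, 240.1 and 231 CPM in Thpok-RKF+ CD4+CD8+ cells. Mbd2 was lower in Thpok-RKF- CD4+CD8+ than in WT CD4 SP cells (log2 fold change -0.39, SE 0.10, adjusted p = 0.0178). Mbd2 lost this call without Thpok-RKF- CD4+CD8+ replicates 1, 2 and 3 (0.0674, 0.0528 and 0.0505), without WT CD4 SP replicate 2 (0.051) and with no filter on low counts (0.0899). Per length, the log2 ratio of Mbd3 to Mbd2 was -0.41 ± 0.11 in WT CD4 SP cells, against 0.11 ± 0.07 in WT CD8 SP cells (SD, n = 3). Thpok-RKF- CD8 SP cells had 0.15 ± 0.06, Thpok-RKF- CD4+CD8+ cells 0.32 ± 0.12 and Thpok-RKF+ cells 0.24 ± 0.15. The ratio was below 0 in every WT CD4 SP library and above 0 in every other.

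The bridging subunit Gatad2a was the NuRD member with the smallest adjusted p over the 5 groups (3.84e-05). Gatad2a stood at 185, 195 and 187 CPM in the WT CD4 SP libraries and 344, 354 and 357 CPM in WT CD8 SP. Gatad2a values in mutant libraries were 219, 221 and 232 CPM in Thpok-RKF- CD8 SP, 248, 223 and 252 CPM in Thpok-RKF- CD4+CD8+ and 225, 247 and 261 CPM in Thpok-RKF+ CD4+CD8+ cells. The WT CD8 SP libraries were above all others and the WT CD4 SP libraries below all others. Gatad2a was lower in WT CD4 SP than in WT CD8 SP cells (log2 fold change -0.90, SE 0.09, adjusted p = 8.54e-06). It was lower in Thpok-RKF- CD8 SP than in WT CD8 SP cells (log2 fold change -0.65, SE 0.09, adjusted p = 0.00011). Both calls held with each library left out and under each other setting. Against WT CD4 SP cells it was higher in Thpok-RKF- CD4+CD8+ (log2 fold change 0.35, SE 0.09, adjusted p = 0.0152) and Thpok-RKF+ CD4+CD8+ cells (log2 fold change 0.37, SE 0.09, adjusted p = 0.0183). The call in Thpok-RKF- cells was lost without Thpok-RKF- CD4+CD8+ replicates 1 and 3 (0.0641 and 0.0933), without WT CD4 SP replicates 1 and 3 (0.0642 and 0.0738) and with no filter on low counts (0.0851). That in Thpok-RKF+ cells was lost without Thpok-RKF+ CD4+CD8+ replicate 3 (0.0963), without WT CD4 SP replicates 1 and 3 (0.0854 and 0.0811), with no filter on low counts (0.131) and with the compared groups alone in the fit (0.168). In Thpok-RKF- CD8 SP cells DESeq2 (0.26, adjusted p = 0.00757) and limma-trend (0.0207) called Gatad2a higher than in WT CD4 SP cells. Gatad2b had lower values, 27.3, 19.8 and 21.3 CPM in the WT CD4 SP libraries and 38.6, 30.8 and 22.1 CPM in WT CD8 SP. Gatad2b values in mutant libraries were 39.3, 31.4 and 43.8 CPM in Thpok-RKF- CD8 SP, 51.7, 53.1 and 45.3 CPM in Thpok-RKF- CD4+CD8+ and 57.6, 22.4 and 27.9 CPM in Thpok-RKF+ CD4+CD8+ cells. Gatad2b was higher in Thpok-RKF- CD4+CD8+ than in WT CD4 SP cells (log2 fold change 1.13, SE 0.30, adjusted p = 0.0181). Gatad2b lost this call without Thpok-RKF- CD4+CD8+ replicates 1 and 2 (0.0512 and 0.0599) and without WT CD4 SP replicates 2 and 3 (0.0598 and 0.0751). In Thpok-RKF- CD8 SP cells edgeR called Gatad2b higher than in WT CD4 SP cells with no filter on low counts (0.76, adjusted p = 0.0236). The same held with the compared groups alone in the fit (0.0268) and without all libraries numbered 1 (0.025). DESeq2 and limma-trend did not call it there. Per length, Gatad2a exceeded Gatad2b by 4.07 ± 0.43 (log2, SD, n = 3) in WT CD8 SP, 3.57 ± 0.28 in WT CD4 SP, 3.39 ± 0.80 in Thpok-RKF+, 3.07 ± 0.22 in Thpok-RKF- CD8 SP and 2.78 ± 0.20 in Thpok-RKF- CD4+CD8+ cells. The Thpok-RKF+ libraries had 2.48 in replicate 1 and 3.97 and 3.73 in the other two.

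The promoters of 3 of the 9 members lower in WT CD4 SP than in WT CD8 SP cells are shown for context: Gatad2a, Mbd3 and the Polycomb gene Ezh2. Each is the 250 bases before an annotated start in RefSeq (GRCm38.p6), 5′ to 3′ on the gene's strand. Capitals mark matches to a RUNX core (TGTGGT or its reverse complement ACCACA) or a CCAAT box (CCAAT or its reverse complement ATTGG), searched on both strands with overlapping matches kept. RUNX motifs are bound by the Runx factors, of which Runx3 marks the cytotoxic lineage, and CCAAT boxes by NF-Y. The counts do not show which start is used, and the builds of this annotation and of the submitters' notes (mm39) differ.
Gatad2a (chr8:69996385-69996634, minus strand): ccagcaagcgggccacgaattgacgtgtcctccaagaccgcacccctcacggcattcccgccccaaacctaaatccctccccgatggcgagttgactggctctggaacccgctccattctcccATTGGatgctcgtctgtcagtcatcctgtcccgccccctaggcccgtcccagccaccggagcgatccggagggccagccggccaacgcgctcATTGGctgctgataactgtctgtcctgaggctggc
Mbd3 (chr10:80399532-80399781, minus strand): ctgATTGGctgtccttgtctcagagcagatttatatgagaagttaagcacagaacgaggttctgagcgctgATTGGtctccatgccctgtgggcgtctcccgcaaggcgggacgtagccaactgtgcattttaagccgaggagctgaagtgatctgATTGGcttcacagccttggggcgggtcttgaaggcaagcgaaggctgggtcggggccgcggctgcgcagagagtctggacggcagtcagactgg
Ezh2 (chr6:47595031-47595280, minus strand): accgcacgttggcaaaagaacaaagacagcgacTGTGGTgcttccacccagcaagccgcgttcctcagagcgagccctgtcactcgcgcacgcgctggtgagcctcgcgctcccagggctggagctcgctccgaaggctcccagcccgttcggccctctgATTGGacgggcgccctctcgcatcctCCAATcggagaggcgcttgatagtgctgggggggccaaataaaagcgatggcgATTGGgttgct
The Gatad2a window holds 2 CCAAT boxes and no RUNX core, the Mbd3 window 3 CCAAT boxes and no RUNX core, and the Ezh2 window 3 CCAAT boxes and 1 RUNX core. A further Gatad2a start (chr8:69974384-69974633, minus strand) held neither. RefSeq windows were at hand for 29 of the 34 members, 38 windows in all. A RUNX core was in 5 of these windows (13.2%), against 14.0% of all 32851 windows of that length, and a CCAAT box in 14 (36.8%), against 33.8%. Of the other members lower in WT CD4 SP than in WT CD8 SP cells, Rcor1 had a CCAAT box. None was found for Hdac7, Tbl1xr1, Mta3, Smarcc1 or Smarca4 in the windows at hand. These are matches of letters, not measured sites.

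The core subunits gave no call in any of the 7 comparisons in the main edgeR fit. Hdac1 and Hdac2 encode the deacetylases, Rbbp4 and Rbbp7 the histone chaperones, and Cdk2ap1 a small accessory subunit. Hdac1 ran from 269 to 394 CPM over the 15 libraries, Hdac2 from 138 to 246, Rbbp4 from 220.0 to 468 and Cdk2ap1 from 21.9 to 37.1. Rbbp7 had the highest level per length of all members (218 CPM per kb over the groups) and ran from 387 to 705 CPM. Rbbp7 gave a log2 fold change of -0.51 (SE 0.17, adjusted p = 0.0519) between the WT lineages, with the libraries of the 2 groups not overlapping. It was called there with DESeq2 (0.0332), limma-trend (0.0309), no filter on low counts (0.0287) and the compared groups alone in the fit (0.0495). In Thpok-RKF- CD8 SP against WT CD8 SP cells its log2 fold change was -0.50 (SE 0.17, adjusted p = 0.056), called with DESeq2 (0.0496), no filter (0.0464) and the compared groups alone (0.0412). Without all libraries numbered 1 both were called (0.00257 and 0.00273), and so was Hdac2 between the WT lineages (0.0128). With a term for the libraries numbered 1, edgeR called Rbbp4 lower in WT CD4 SP than in WT CD8 SP cells (-0.45, adjusted p = 0.0467). Hdac2 was called there too (-0.44, adjusted p = 0.0241). Reads of Hdac1 could also match the pseudogene Hdac1-ps, listed at 17038 counts over the libraries against 219155 for Hdac1. How reads matching both were counted was not given, so the level of Hdac1 is uncertain by such reads.

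In SIN3, whose scaffold proteins Sin3a and Sin3b hold Hdac1 and Hdac2 on other platforms, the subunits did not move one way. Sin3a stood at 63.5, 57.9 and 62.2 CPM in the WT CD4 SP libraries and 85.8, 69.2 and 75.0 CPM in WT CD8 SP. Sin3a values in mutant libraries were 79.6, 83.0 and 75.3 CPM in Thpok-RKF- CD8 SP, 95.9, 100.1 and 80.8 CPM in Thpok-RKF- CD4+CD8+ and 96.5, 56.9 and 60.1 CPM in Thpok-RKF+ CD4+CD8+ cells. Thpok-RKF+ replicate 1 lay with the Thpok-RKF- CD4+CD8+ libraries. Sin3a was higher in Thpok-RKF- CD4+CD8+ than in WT CD4 SP cells (log2 fold change 0.59, SE 0.17, adjusted p = 0.0303). Sin3a lost this call without Thpok-RKF- CD4+CD8+ replicates 1 and 2 (0.0829 and 0.112) and without WT CD4 SP replicates 1, 2 and 3 (0.0612, 0.0819 and 0.0878). Sin3b, at 128 to 133 CPM in WT CD4 SP libraries and 147 to 188 CPM in all others, was higher than in WT CD4 SP in Thpok-RKF- CD8 SP (log2 fold change 0.42, SE 0.10, adjusted p = 0.0113) and CD4+CD8+ cells (log2 fold change 0.32, SE 0.10, adjusted p = 0.0421). The first call was lost without Thpok-RKF- CD8 SP replicates 2 and 3 (0.0741 and 0.0702) and without WT CD4 SP replicates 2 and 3 (0.0503 and 0.0687). The second was lost without Thpok-RKF- CD4+CD8+ replicates 1, 2 and 3 (0.0952, 0.18 and 0.145), without WT CD4 SP replicates 1, 2 and 3 (0.105, 0.125 and 0.166) and with no filter on low counts (0.142).

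Sap18 stood at 102, 108 and 133 CPM in the WT CD4 SP libraries and 72.8, 87.2 and 89.7 CPM in WT CD8 SP. Sap18 values in mutant libraries were 66.7, 76.7 and 89.0 CPM in Thpok-RKF- CD8 SP, 66.1, 74.5 and 70.1 CPM in Thpok-RKF- CD4+CD8+ and 74.6, 109.8 and 92.1 CPM in Thpok-RKF+ CD4+CD8+ cells. Sap18, a small SIN3-associated protein that also occurs in splicing-linked complexes, was the 1 member that fell against WT CD4 SP cells in both Thpok-RKF- groups. It fell in Thpok-RKF- CD8 SP (log2 fold change -0.56, SE 0.16, adjusted p = 0.0249). It fell as well in Thpok-RKF- CD4+CD8+ cells (log2 fold change -0.70, SE 0.16, adjusted p = 0.00899). The second call held with each library left out and under each other setting. The first was lost without Thpok-RKF- CD8 SP replicates 1 and 2 (0.0912 and 0.0768) and without WT CD4 SP replicate 3 (0.105). Between the WT lineages DESeq2 (0.48, adjusted p = 0.0191) and limma-trend (0.0235) called Sap18 higher in WT CD4 SP cells. The copy Sap18b was listed at 1781 counts against 58347 for Sap18, and how reads matching both were counted was not given. Sap30 was low, at 8.97, 8.09 and 7.57 CPM in the WT CD4 SP libraries and 11.2, 14.4 and 12.6 CPM in WT CD8 SP. Sap30 values in mutant libraries were 6.76, 5.25 and 7.33 CPM in Thpok-RKF- CD8 SP, 7.57, 11.5 and 4.97 CPM in Thpok-RKF- CD4+CD8+ and 5.41, 11.4 and 12.2 CPM in Thpok-RKF+ CD4+CD8+ cells. Sap30, a subunit that stabilises the SIN3 and deacetylase core, was lower in Thpok-RKF- CD8 SP than in WT CD8 SP cells (log2 fold change -0.98, SE 0.32, adjusted p = 0.0457). Sap30 lost this call without Thpok-RKF- CD8 SP replicates 1, 2 and 3 (0.111, 0.172 and 0.0821), without WT CD8 SP replicates 1, 2 and 3 (0.0657, 0.158 and 0.114), with relative log expression size factors (0.053) and without all libraries numbered 1 (0.0664).

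CoREST pairs the Rcor proteins with the histone demethylase Kdm1a (LSD1). Rcor1 stood at 107, 134 and 93.9 CPM in the WT CD4 SP libraries and 176, 142 and 156 CPM in WT CD8 SP. Rcor1 values in mutant libraries were 136, 138 and 142 CPM in Thpok-RKF- CD8 SP, 149.9, 155 and 139.6 CPM in Thpok-RKF- CD4+CD8+ and 149, 131 and 147 CPM in Thpok-RKF+ CD4+CD8+ cells. The WT CD4 SP libraries were lowest, apart from replicate 2, which overlapped with Thpok-RKF+ replicate 2. Rcor1 was lower in WT CD4 SP than in WT CD8 SP cells (log2 fold change -0.50, SE 0.13, adjusted p = 0.0134). It was higher in Thpok-RKF- CD4+CD8+ than in WT CD4 SP cells (log2 fold change 0.41, SE 0.13, adjusted p = 0.0389). Its first call was lost without WT CD4 SP replicates 1 and 3 (0.0759 and 0.0957), without WT CD8 SP replicate 1 (0.099), with the compared groups alone in the fit (0.0797) and without all libraries numbered 1 (0.187). Its second was lost without Thpok-RKF- CD4+CD8+ replicates 1, 2 and 3 (0.111, 0.157 and 0.0914), without WT CD4 SP replicates 1 and 3 (0.133 and 0.208), with no filter on low counts (0.0623), with the compared groups alone in the fit (0.08) and without all libraries numbered 1 (0.151). Rcor2 (1.44 to 4.80 CPM) and Kdm1a (163 to 236 CPM) were not called in any comparison with all libraries.

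NCoR complexes hold Hdac3, whose activity depends on the NCoR proteins, and class IIa deacetylases such as Hdac7 dock on them. Hdac7, a signal-regulated repressor in thymocytes, had the largest log2 fold changes of the 34 members in each comparison with WT CD4 SP cells. Hdac7 stood at 75.1, 80.6 and 51.9 CPM in the WT CD4 SP libraries and 300.5, 245 and 219 CPM in WT CD8 SP. Hdac7 values in mutant libraries were 368, 427 and 379 CPM in Thpok-RKF- CD8 SP, 308, 243 and 261 CPM in Thpok-RKF- CD4+CD8+ and 304, 124 and 138 CPM in Thpok-RKF+ CD4+CD8+ cells. Every WT CD4 SP library was below every library of the other groups, and Thpok-RKF- CD8 SP libraries were above all others. Hdac7 was lower in WT CD4 SP than in WT CD8 SP cells (log2 fold change -1.88, SE 0.28, adjusted p = 0.000332). Against WT CD4 SP cells it was higher in Thpok-RKF- CD8 SP cells (log2 fold change 2.50, SE 0.29, adjusted p = 3.87e-05). It was higher too in Thpok-RKF- CD4+CD8+ (log2 fold change 1.97, SE 0.28, adjusted p = 0.000438) and Thpok-RKF+ CD4+CD8+ cells (log2 fold change 1.45, SE 0.28, adjusted p = 0.00462). These calls held with each library left out and under each other setting, except that the last was lost with the compared groups alone in the fit (0.073). Against WT CD8 SP cells, edgeR called Hdac7 higher in Thpok-RKF- CD8 SP cells with no filter on low counts (0.64, adjusted p = 0.035). The same held with the compared groups alone in the fit (0.00801) and without all libraries numbered 1 (0.0148). The main fit, DESeq2 and limma-trend did not call it there. In Thpok-RKF+ cells replicates 2 and 3 lay between the WT CD4 SP and Thpok-RKF- CD4+CD8+ libraries and replicate 1 lay within the latter. Tbl1xr1 was at 37.2, 51.1 and 37.6 CPM in the WT CD4 SP libraries and 91.5, 69.2 and 68.9 CPM in WT CD8 SP. Tbl1xr1 values in mutant libraries were 73.0, 74.9 and 65.3 CPM in Thpok-RKF- CD8 SP, 88.0, 85.2 and 64.8 CPM in Thpok-RKF- CD4+CD8+ and 96.5, 49.1 and 58.7 CPM in Thpok-RKF+ CD4+CD8+ cells. Tbl1xr1, a WD-repeat subunit that helps exchange corepressors, was lower in WT CD4 SP than in WT CD8 SP cells (log2 fold change -0.87, SE 0.23, adjusted p = 0.0151). It was higher than in WT CD4 SP cells in Thpok-RKF- CD8 SP (log2 fold change 0.76, SE 0.22, adjusted p = 0.0308) and Thpok-RKF- CD4+CD8+ cells (log2 fold change 0.92, SE 0.23, adjusted p = 0.0133). The first call was lost without WT CD4 SP replicates 1 and 3 (0.0714 and 0.0717), without WT CD8 SP replicate 1 (0.0798) and without all libraries numbered 1 (0.0612). The second was lost without Thpok-RKF- CD8 SP replicates 1, 2 and 3 (0.0783, 0.108 and 0.0561) and without WT CD4 SP replicates 1 and 3 (0.104 and 0.132). The third was lost without Thpok-RKF- CD4+CD8+ replicates 1 and 2 (0.0509 and 0.0525) and without WT CD4 SP replicates 1 and 3 (0.0524 and 0.065). Ncor1 (363 to 514 CPM) and Hdac3 (129 to 175 CPM) were not called in any of the 7 comparisons in the main edgeR fit. Ncor1 was called higher in WT CD4 SP than in WT CD8 SP cells with DESeq2 (0.30, adjusted p = 0.0119), limma-trend (0.0462) and relative log expression size factors (0.0423). It was likewise called higher in Thpok-RKF- CD8 SP than in WT CD8 SP cells with DESeq2 (0.31, adjusted p = 0.00804), limma-trend (0.02) and relative log expression size factors (0.0355).

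**Figure D3:**
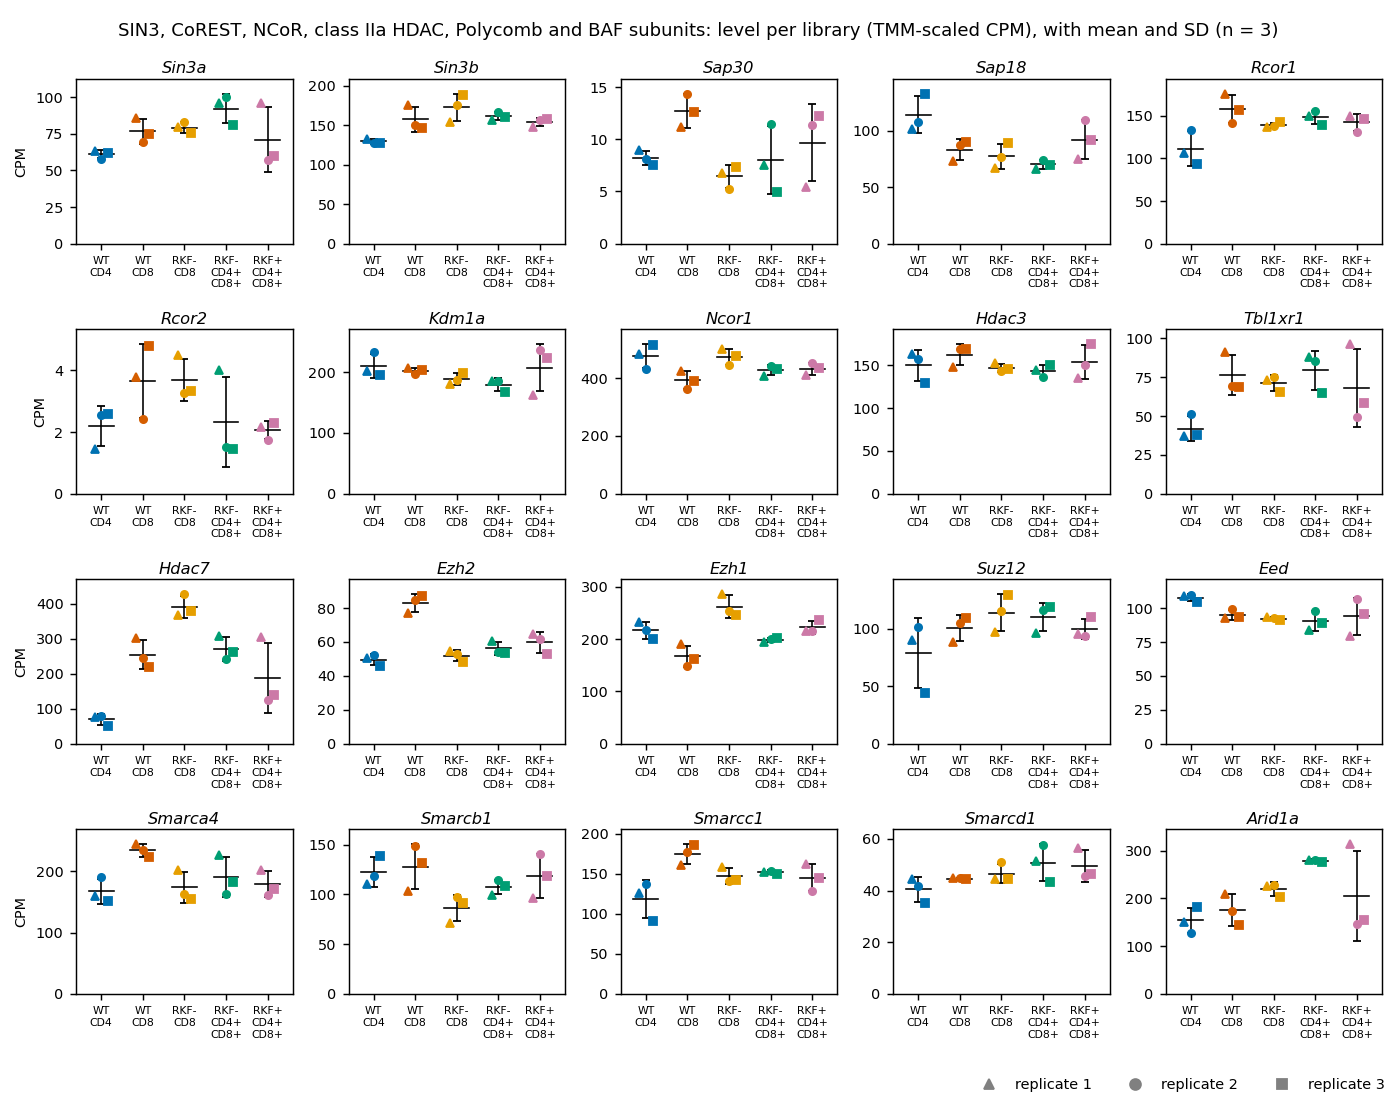
Level of the 20 members of the other complexes in each library (vertical axes, CPM from 0; symbols mark replicates 1 to 3) for the 5 groups, where RKF- and RKF+ stand for Thpok-RKF- and Thpok-RKF+, with bars for the mean and SD (n = 3). Hdac7 is lowest in WT CD4 SP at 69.2 CPM and highest in Thpok-RKF- CD8 SP at 391 CPM, and Ezh2 is highest in WT CD8 SP at 83.1 CPM.

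The methyltransferases of Polycomb repressive complexes changed in opposite directions. Ezh2 is the form typical of dividing cells and Ezh1 the form typical of resting cells. Ezh2 stood at 50.8, 52.1 and 46.0 CPM in the WT CD4 SP libraries and 77.1, 84.9 and 87.1 CPM in WT CD8 SP. Ezh2 values in mutant libraries were 54.5, 52.7 and 48.3 CPM in Thpok-RKF- CD8 SP, 60.9, 54.3 and 53.5 CPM in Thpok-RKF- CD4+CD8+ and 64.8, 61.8 and 52.9 CPM in Thpok-RKF+ CD4+CD8+ cells. WT CD8 SP libraries were above all others. Ezh2, whose promoter is printed with that of Gatad2a, was lower in WT CD4 SP than in WT CD8 SP cells (log2 fold change -0.74, SE 0.12, adjusted p = 0.000419). It was also lower in Thpok-RKF- CD8 SP than in WT CD8 SP cells (log2 fold change -0.68, SE 0.12, adjusted p = 0.000655). Both calls held with each library left out and under each other setting. Ezh1 was at 232, 218 and 200.2 CPM in the WT CD4 SP libraries and 189.8, 149 and 161 CPM in WT CD8 SP. Ezh1 values in mutant libraries were 286, 254 and 246 CPM in Thpok-RKF- CD8 SP, 194, 199.5 and 202 CPM in Thpok-RKF- CD4+CD8+ and 215, 216 and 236 CPM in Thpok-RKF+ CD4+CD8+ cells. Ezh1 was higher in WT CD4 SP than in WT CD8 SP cells (log2 fold change 0.38, SE 0.11, adjusted p = 0.0241). It was also higher in Thpok-RKF- CD8 SP than in WT CD8 SP cells (log2 fold change 0.65, SE 0.11, adjusted p = 0.000555). The second call held with each library left out and under each other setting. The first was lost without WT CD4 SP replicates 1 and 2 (0.0826 and 0.0531), without WT CD8 SP replicates 2 and 3 (0.1 and 0.0736), with no filter on low counts (0.0972) and with the compared groups alone in the fit (0.0619).

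Genes of the cell cycle moved alongside. The summed level of 18 cell cycle genes was 1720 to 2870 CPM in WT CD8 SP libraries, 594 to 829 in WT CD4 SP, 395 to 504 in Thpok-RKF- CD8 SP, 994 to 1010 in Thpok-RKF- CD4+CD8+ and 707 to 817 in Thpok-RKF+ libraries. All 18 were lower in WT CD4 SP and in Thpok-RKF- CD8 SP than in WT CD8 SP cells, no marker of the 18 was at 0, and the part of cycling cells in the differences of Ezh2, Ezh1 and the other members was not tested. Per length, the log2 ratio of Ezh1 to Ezh2 was 1.01 ± 0.06 in WT CD4 SP cells, against -0.12 ± 0.26 in WT CD8 SP cells (SD, n = 3). It was 1.22 ± 0.06 in Thpok-RKF- CD8 SP, 0.70 ± 0.13 in Thpok-RKF- CD4+CD8+ and 0.78 ± 0.23 in Thpok-RKF+ cells. The cell cycle sum was higher in both CD4+CD8+ groups than in every Thpok-RKF- CD8 SP library, and Ezh2 in Thpok-RKF- CD4+CD8+ against Thpok-RKF- CD8 SP cells had a log2 fold change of 0.12 (SE 0.11, adjusted p = 0.861). The partner subunits Suz12 (44.0 to 129 CPM, the lowest in WT CD4 SP replicate 3) and Eed (79.3 to 109.7 CPM) were not called in any comparison.

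**Figure D4:**
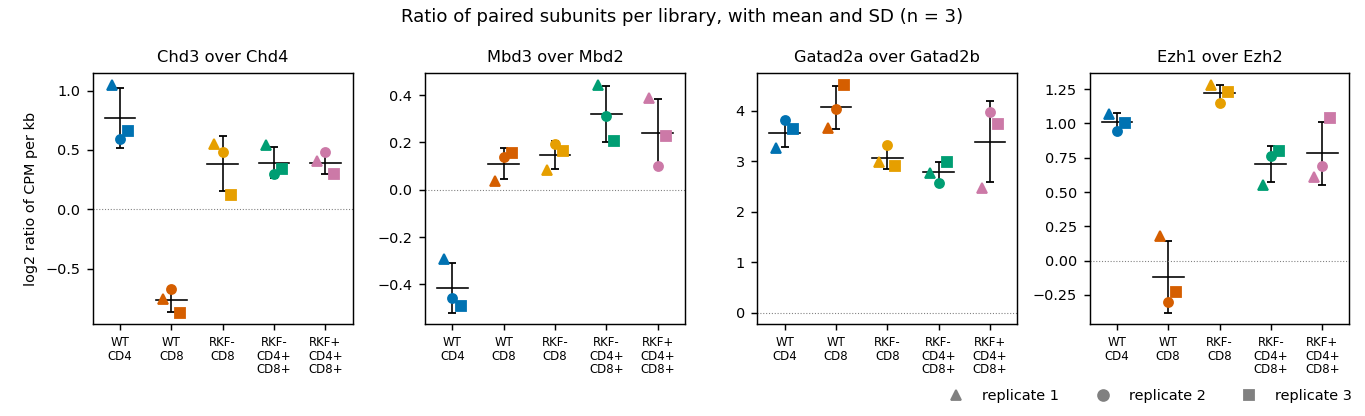
Log2 ratio of CPM per kb of merged exons for 4 pairs of subunits that stand in for each other, per library (symbols) with mean and SD (n = 3); RKF- and RKF+ stand for Thpok-RKF- and Thpok-RKF+, and the dotted line is an equal level. The Chd3 over Chd4 and Ezh1 over Ezh2 means lie below 0 in WT CD8 SP alone, and the Mbd3 over Mbd2 mean in WT CD4 SP alone.

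BAF (SWI/SNF) remodellers, which often oppose Polycomb, had 4 of the 5 listed subunits called once each in the main edgeR fit. Of all genes, 37.1% were called in at least 1 of the 7 comparisons. Smarcc1 stood at 126, 137 and 91.2 CPM in the WT CD4 SP libraries and 161, 177 and 186 CPM in WT CD8 SP. Smarcc1 values in mutant libraries were 159, 141 and 142 CPM in Thpok-RKF- CD8 SP, 152, 154 and 149 CPM in Thpok-RKF- CD4+CD8+ and 162, 128 and 144 CPM in Thpok-RKF+ CD4+CD8+ cells. The core subunit Smarcc1 was lower in WT CD4 SP than in WT CD8 SP cells (log2 fold change -0.56, SE 0.14, adjusted p = 0.0111). Smarcc1 lost this call without WT CD4 SP replicate 3 (0.0513), without WT CD8 SP replicate 3 (0.0543) and with the compared groups alone in the fit (0.0577). The ATPase gene Smarca4 was lower there too, at 159, 191 and 151 CPM in WT CD4 SP libraries against 245, 234 and 224 CPM in WT CD8 SP (log2 fold change -0.49, SE 0.15, adjusted p = 0.0322). Smarca4 lost this call without WT CD4 SP replicates 1 and 3 (0.115 and 0.139), without WT CD8 SP replicates 1, 2 and 3 (0.112, 0.0897 and 0.0684) and without all libraries numbered 1 (0.0687). DESeq2 also called it lower in Thpok-RKF- CD8 SP than in WT CD8 SP cells (-0.39, adjusted p = 0.0452). Smarcb1 was at 110.1, 119 and 139 CPM in the WT CD4 SP libraries and 104, 149 and 131 CPM in WT CD8 SP. Smarcb1 values in mutant libraries were 71.3, 97.0 and 91.0 CPM in Thpok-RKF- CD8 SP, 99.6, 114 and 108 CPM in Thpok-RKF- CD4+CD8+ and 96.8, 141 and 118 CPM in Thpok-RKF+ CD4+CD8+ cells. Smarcb1, another core subunit, was lower in Thpok-RKF- CD8 SP than in WT CD8 SP cells (log2 fold change -0.57, SE 0.17, adjusted p = 0.0292). Smarcb1 lost this call without Thpok-RKF- CD8 SP replicates 1 and 3 (0.146 and 0.0702) and without WT CD8 SP replicates 2 and 3 (0.173 and 0.108). DESeq2 (-0.48, adjusted p = 0.0308) and limma-trend (0.0409) also called it lower in Thpok-RKF- CD8 SP than in WT CD4 SP cells. Arid1a ran higher, at 151, 128 and 182 CPM in the WT CD4 SP libraries and 209.5, 173 and 144 CPM in WT CD8 SP. Arid1a values in mutant libraries were 225, 229 and 203 CPM in Thpok-RKF- CD8 SP, 279.9, 280.4 and 275 CPM in Thpok-RKF- CD4+CD8+ and 314, 146 and 154 CPM in Thpok-RKF+ CD4+CD8+ cells. The DNA-binding subunit Arid1a was higher in Thpok-RKF- CD4+CD8+ than in WT CD4 SP cells (log2 fold change 0.86, SE 0.24, adjusted p = 0.0243). Arid1a lost this call without Thpok-RKF- CD4+CD8+ replicates 1, 2 and 3 (0.0574, 0.0649 and 0.0623) and without WT CD4 SP replicates 1 and 2 (0.063 and 0.0795). Smarcd1 (35.2 to 57.8 CPM) was not called in any comparison.

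The comparison that differs by label only in Thpok-RKF, between the CD4+CD8+ groups, turned on 1 library. With all libraries the members' log2 fold changes ran from -0.53 (Mta1, SE 0.20, adjusted p = 0.243) to 0.51 (Cdk2ap1, SE 0.15, adjusted p = 0.148), with medians of 0.04 for NuRD, -0.05 for the other complexes and 0.00618 for all genes. In Thpok-RKF+ replicate 1, 28 of the 34 members (82.4%) lay closer to the Thpok-RKF- mean than to that of the other 2 libraries. The count was 12 of 14 in NuRD and 16 of 20 in the other complexes, against 65.4% of all tested genes. The same share was not taken for the other Thpok-RKF+ libraries. Without Thpok-RKF+ replicate 1 there were 11 members called, 4 higher and 7 lower in Thpok-RKF+ cells, where 9.74% of all genes tested were called. The lower members were Hdac7, at -1.04 (adjusted p = 0.00681), Gatad2b, at -0.98 (adjusted p = 0.0214), and Arid1a, at -0.88 (adjusted p = 0.00624). So were Mta1, at -0.78 (adjusted p = 0.0242), Chd3, at -0.66 (adjusted p = 0.00977), Chd4, at -0.65 (adjusted p = 0.0166), and Sin3a, at -0.65 (adjusted p = 0.0088). The higher members were Cdk2ap1, at 0.61 (adjusted p = 0.0333), Sap18, at 0.53 (adjusted p = 0.0421), Rbbp7, at 0.51 (adjusted p = 0.0436), and Kdm1a, at 0.37 (adjusted p = 0.0382). These adjusted p-values are from the same edgeR test with 2 Thpok-RKF+ libraries. Replicate 1 was singled out in part for lying near the Thpok-RKF- mean. Leaving it out thus enlarges the differences by the choice itself, and these calls are not independent of it. Both NuRD ATPases were among the lower members: Chd4 stood at 253, 137 and 149.7 CPM in Thpok-RKF+ and 226, 229.5 and 226 CPM in Thpok-RKF- CD4+CD8+ libraries, and Chd3 at 362, 206 and 198 and 356, 306 and 308 CPM. Replicate 1 also held the largest share of reads assigned to no feature (11.2%), and the part of that share in its position was not tested.

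**Figure D5:**
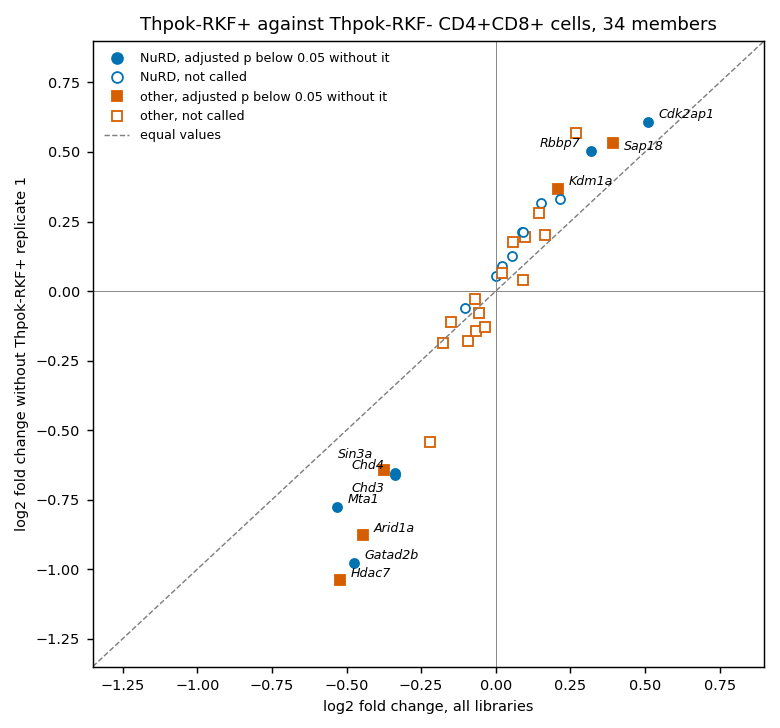
Log2 fold change of the 34 members between Thpok-RKF+ and Thpok-RKF- CD4+CD8+ cells with all libraries (horizontal) and without Thpok-RKF+ replicate 1 (vertical); circles are NuRD, squares the other complexes, and filled symbols had an adjusted p below 0.05 without that library. The 11 filled symbols lie farther from 0 on the vertical axis than on the horizontal, with Hdac7 at -0.52 and -1.04.

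Beyond the members, 78 other genes of these complexes were listed and 73 tested. Between the WT lineages 9 were higher and 9 lower in WT CD4 SP cells, against 7.72% and 10.3% of all genes. They were led by Bcl7c (-1.34, SE 0.22, adjusted p = 0.000786), a BAF subunit, and Arid4b (0.70, SE 0.13, adjusted p = 0.00206) of SIN3. Next came Rcor3 (1.05, SE 0.20, adjusted p = 0.00227) of CoREST and Cdk2ap2 (0.92, SE 0.20, adjusted p = 0.00602), the paralog of Cdk2ap1. Rcor3 and Rcor1 thus differed in opposite directions. In Thpok-RKF- CD8 SP against WT CD8 SP cells 16 were higher and 2 lower, against 7.77% and 10.6% of all genes. Of the 8 CoREST-related genes 6 were higher, and no test of that list was made. The leading genes were Sinhcaf (-0.95, SE 0.17, adjusted p = 0.000893) of SIN3 and Gse1 (1.29, SE 0.25, adjusted p = 0.00176) of CoREST. They were followed by Phf21a (0.69, SE 0.14, adjusted p = 0.00249) of CoREST and Bcl7c (-1.12, SE 0.22, adjusted p = 0.00236). Suds3 was higher as well (log2 fold change 0.43, adjusted p = 0.0426). Against WT CD4 SP cells, 15 were higher and 0 lower in Thpok-RKF- CD8 SP cells, beside 8.91% and 8.75% of all genes. Foremost were Hdac4 (0.86, SE 0.11, adjusted p = 8.47e-05), a class IIa deacetylase like Hdac7, and Smarca2 (0.76, SE 0.13, adjusted p = 0.00125), the BAF ATPase that stands in for Smarca4. The next were Aebp2 (1.06, SE 0.20, adjusted p = 0.00193) of Polycomb and the Groucho corepressor gene Tle2 (2.48, SE 0.48, adjusted p = 0.00277). In Thpok-RKF- CD4+CD8+ cells 13 were higher and 3 lower, beside 9.15% and 8.42% of all genes. The first were Zmym3 (1.24, SE 0.18, adjusted p = 0.000435), Phc1 (1.09, SE 0.21, adjusted p = 0.00332), Aebp2 (0.96, SE 0.20, adjusted p = 0.00515) and Pcgf1 (-0.87, SE 0.18, adjusted p = 0.00582). In Thpok-RKF+ cells 2 were higher and 1 lower, beside 4.36% and 2.91% of all genes. They were Zmym3 (0.91, SE 0.18, adjusted p = 0.0049), Tle2 (2.08, SE 0.48, adjusted p = 0.0149) and Rcor3 (-0.81, SE 0.20, adjusted p = 0.0227). Among the mutant groups, 1 was called, Hdac4 (-0.62, SE 0.11, adjusted p = 0.00471), lower in Thpok-RKF- CD4+CD8+ than in Thpok-RKF- CD8 SP cells. Of all genes, 2.44% were called there. Between Thpok-RKF+ and Thpok-RKF- CD4+CD8+ cells edgeR called 0 of 73, against 0.961% of all genes, with 6 at an unadjusted p below 0.05.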

How the data were processed

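RNA of 15 libraries, 3 in each of 5 groups taken from the labels, was made with Qiagen RNeasy Plus Micro and Takara SMARTer Ultra Low Input kits and read as 101 bp pairs on a NovaSeq, per the labels' protocols. Tools named in the submitters' processing notes are bcl2fastq 2.17, Trimmomatic, STAR, HTSeq and DESeq2, with the build mm39. Roles of the tools, annotation and strand setting were not given in the sources used here. Thus reads of overlapping and antisense genes cannot be told apart. The authors deposited unnormalised read counts, which were the same in both deposited forms for all 15 libraries, and normalised values named FPM, which are CPM: scaled back by the gene total, 100% of the deposited CPM values were whole reads (tolerance 0.01), so a count test on those reads is the test on the deposited counts. Each series table held 3 further columns matching no sample's label, left unused. The 5 summary lines that name no gene held 15.9% to 21.0% of the reads of a library and stayed out of totals and tests. Between replicates the chi-square of counts over its degrees of freedom was 11.1 to 190.4, so no pair agreed within sampling noise.

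Changes were tested with the quasi-likelihood F test of edgeR 4.0.16 in R 4.3.3 (TMM, expression filter with minimum count 10 and minimum total 15, all 15 libraries in 1 model of 5 group means), adjusted by Benjamini-Hochberg over 16550 genes, with a threshold of 0.05. The script was tested on simulated data. The standard error was taken as the absolute log2 fold change over the root of F. Levels per length use merged exons of GENCODE M21 (GRCm38), which is not the build of the notes. The alternatives tried were DESeq2 1.42.0, limma-trend (3.58.1) on log2 of the deposited CPM plus 1, relative log expression size factors, a fit with no filter on low counts, a fit of the compared groups alone, the replicate number as a block, the libraries numbered 1 left out or given a term, and each library left out in turn.

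The members and all lists were chosen with earlier results of these data known, so no test of a list was made. Library values are given for NuRD members called in a comparison or over the 5 groups, and for members of the other complexes called with an absolute log2 fold change of at least 0.5, with the rest by range. Smarca4 and Sin3b fell outside this rule and were given values because they were called. Of the 78 other genes, up to 4 per comparison are named by smallest adjusted p, and Suds3 was added for its synonym.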

Additional observations from a re-analysis of the deposited data

Results flagged for a closer look

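The difference between CD4-expressing and CD8 SP cells was tested for being unequal in Thpok-RKF- mutant and WT cells, as the log2 fold change of Thpok-RKF- CD4+CD8+ cells over Thpok-RKF- CD8 SP cells less that of WT CD4 SP over WT CD8 SP cells. Of 34 members 6 were higher and 2 lower by this measure, against 14.3% of all genes called (8.47% higher, 5.79% lower), 2 of 14 in NuRD and 6 of 20 in the other complexes. The gates (CD4+CD8+ and CD4 SP) and the hosts differ between its terms. In NuRD, Gatad2a had a log2 difference 1.00, SE 0.12, adjusted p = 9.34e-05 (0.11 between the Thpok-RKF- groups and -0.90 between the WT groups), and Mta3 a log2 difference 0.60, SE 0.13, adjusted p = 0.00803 (-0.12 between the Thpok-RKF- groups and -0.72 between the WT groups). Hdac7 had a log2 difference 1.35, SE 0.39, adjusted p = 0.0317 (-0.53 between the Thpok-RKF- groups and -1.88 between the WT groups). Tbl1xr1 had a log2 difference 1.03, SE 0.32, adjusted p = 0.0434 (0.16 between the Thpok-RKF- groups and -0.87 between the WT groups), and Rcor1 a log2 difference 0.60, SE 0.18, adjusted p = 0.0395 (0.09 between the Thpok-RKF- groups and -0.50 between the WT groups). Ezh2 had a log2 difference 0.86, SE 0.16, adjusted p = 0.00253 (0.12 between the Thpok-RKF- groups and -0.74 between the WT groups), and Ezh1 a log2 difference -0.78, SE 0.15, adjusted p = 0.00317 (-0.40 between the Thpok-RKF- groups and 0.38 between the WT groups). All 18 cell cycle genes were higher by the same measure, and their part in the results was not tested. Ncor1, a scaffold of NCoR, had a log2 difference -0.43, SE 0.14, adjusted p = 0.0479 (-0.15 between the Thpok-RKF- groups and 0.28 between the WT groups). Chd3 was called lower with DESeq2 (-0.76, adjusted p = 0.0454) and the compared groups alone in the fit (-0.75, 0.0112). Sap18 was called lower with DESeq2 (-0.63, 0.0336) and limma-trend (-0.59, 0.0461). Neither was called in the main fit, with relative log expression size factors or in the fits that left each library out in turn. Chd4, Rbbp7, Sin3a, Smarca4 and Smarcc1 were also called under some alternatives.

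The calls for Gatad2a, Ezh2 and Ezh1 held with each of the 12 libraries left out and under each other setting. Mta3 lost its call with no filter on low counts (0.0523). Hdac7 lost its call without Thpok-RKF- CD4+CD8+ replicates 1, 2 and 3 (0.0745, 0.052 and 0.062), without Thpok-RKF- CD8 SP replicates 1, 2 and 3 (0.0794, 0.0527 and 0.0705), without WT CD4 SP replicates 1 and 3 (0.0538 and 0.0793) and without WT CD8 SP replicates 1 and 2 (0.0818 and 0.0599). Tbl1xr1 lost its call without Thpok-RKF- CD4+CD8+ replicates 1 and 2 (0.0975 and 0.104), without Thpok-RKF- CD8 SP replicates 1, 2 and 3 (0.0871, 0.0742 and 0.105), without WT CD4 SP replicates 1 and 3 (0.104 and 0.102), without WT CD8 SP replicates 1, 2 and 3 (0.116, 0.0656 and 0.0624), with limma-trend (0.0534), with relative log expression size factors (0.0515) and without all libraries numbered 1 (0.127). Rcor1 lost its call without Thpok-RKF- CD4+CD8+ replicates 1, 2 and 3 (0.0907, 0.124 and 0.0807), without Thpok-RKF- CD8 SP replicates 1, 2 and 3 (0.112, 0.103 and 0.0794), without WT CD4 SP replicates 1 and 3 (0.111 and 0.115), without WT CD8 SP replicates 1 and 3 (0.132 and 0.0845), with no filter on low counts (0.0778), with the compared groups alone in the fit (0.0511), with relative log expression size factors (0.0545) and without all libraries numbered 1 (0.274). Ncor1 lost its call without Thpok-RKF- CD4+CD8+ replicates 1, 2 and 3 (0.0971, 0.0658 and 0.0823), without Thpok-RKF- CD8 SP replicates 1, 2 and 3 (0.0951, 0.0526 and 0.0895), without WT CD4 SP replicates 1 and 3 (0.0861 and 0.0891), without WT CD8 SP replicates 2 and 3 (0.115 and 0.0849), with no filter on low counts (0.224) and without all libraries numbered 1 (0.0556).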

How the results depend on the processing

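None of the 47 called log2 fold changes of members changed sign under any alternative. Of the 225 that were not called, 58 changed sign under at least 1, with a size of at most 0.415 with all libraries, and none of these was called after the change. Of the 47 calls in the 7 comparisons and the difference of differences, 18 held with each library left out and under each other setting tried, and the report names those that were lost. The counts of members changed moved by more than 1.5 times as follows, and the cause was not tested except that leaving libraries out lowers their number. DESeq2 called 1 between the CD4+CD8+ groups (all libraries: 0), 1 between the Thpok-RKF- groups (0), 10 for Thpok-RKF- CD8 SP against WT CD4 SP (6), 5 for Thpok-RKF+ against WT CD4 SP (3) and 19 over the 5 groups (12), where it called 37.9% of all genes (27.9%). With the compared groups alone in the fit, counts were 2 between the Thpok-RKF- groups, Ezh1 and Hdac7, 11 for Thpok-RKF- CD8 SP against WT CD8 SP (7), 0 for Thpok-RKF+ against WT CD4 SP, where 13 had an unadjusted p below 0.05 with all groups in the fit, and 13 for the difference of differences (8). With no filter on low counts 7 were called for Thpok-RKF- CD4+CD8+ against WT CD4 SP (12). A term for the libraries numbered 1 gave 17 between the WT groups (11), 1 between the CD4+CD8+ groups, 1 between the Thpok-RKF- groups, 10 for Thpok-RKF- CD8 SP against WT CD4 SP, 22 over the 5 groups (37.1% of all genes) and 13 for the difference of differences. Leaving those libraries out gave 9 between the CD4+CD8+ groups, with 10.7% of all genes called (0.961%), and 11 for Thpok-RKF- CD8 SP against WT CD8 SP. In each of these cases the share of all genes called moved the same way as the count.

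With each library left out in turn, the count ran from 7 to 11 between the WT groups, from 0 to 11 between the CD4+CD8+ groups (11 without Thpok-RKF+ replicate 1), 0 in each of 6 fits between the Thpok-RKF- groups, from 5 to 8 for Thpok-RKF- CD8 SP against WT CD8 SP, from 2 to 5 against WT CD4 SP, from 3 to 7 for Thpok-RKF- CD4+CD8+ against WT CD4 SP, from 1 to 4 for Thpok-RKF+ against WT CD4 SP, from 8 to 18 over the 5 groups and from 4 to 10 for the difference of differences. Where an arm was left with 2 libraries the fit pooled the spread over all groups.

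Groups share replicate numbers in the labels, and nothing in the labels says that a number marks a shared source. Correlations of the deviations of same-numbered libraries ran from -0.165 to 0.436, and in no comparison were all 3 above 0.1. Those of the libraries numbered 1 were positive in all 7 comparisons (0.0901 to 0.436), so these libraries deviated alike. The replicate block gave 15 calls between the WT groups, 1 between the CD4+CD8+ groups (Cdk2ap1), 1 between the Thpok-RKF- groups (Ezh1), 9, 9, 12 and 4 in the comparisons with WT cells in the order above, 17 over the 5 groups and 13 for the difference of differences, and it ended the call of Sap30 against WT CD8 SP (adjusted p = 0.0515).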

Other observations

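WT CD4 SP replicate 3 was low for several members, including Mta2, Suz12 and Rbbp4, which the main edgeR fit did not call in any comparison. It held 228 CPM of Mta2, against 499 and 537 CPM in replicates 1 and 2, 44.0 CPM of Suz12, against 90.4 and 101 CPM, and 220.0 CPM of Rbbp4, against 308 and 362 CPM. For each of these 3 genes it was the lowest of the 15 libraries. The same held for Hdac2, Hdac3 and Smarcd1, and for the called members Rcor1, Smarcc1, Smarca4, Hdac7, Mbd3 and Ezh2. For others, Chd3, Chd4 and Sap18 among them, it was the highest library of its group. Without WT CD4 SP replicate 3, Rcor1, Smarcc1, Smarca4 and Tbl1xr1 lost their calls between the WT lineages.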
